A study of Mus musculus with 12 samples.

Results

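Mouse embryonic stem (ES) cells that lack Dicer and are labelled as overexpressing Dnmt3a and Dnmt3b were compared with the Dicer-null cells they derive from. The comparison consists of the 4 of the 12 arrays whose titles name Dnmt3a,3b cells against Dicer1-null cells of the same clone, chosen by title and by no measured value. The cells were, for each of the clones 27G5 and 27H10, Dicer1-null cells labelled Dnmt3a,3b and, as their reference, Dicer1-null cells of that clone. Cells on both sides of every ratio therefore lack Dicer. Of the other arrays, 4 compared Dicer1-null cells overexpressing Dnmt1 with Dicer1-null cells, and 4 compared Dicer1-null cells with wild-type ES cells. All cells grew on gelatin with leukemia inhibitory factor, and no feeder layer is named. The labels give neither the vector and promoter of the introduced genes, nor whether each line was a pool or a single selected clone.

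Dicer is the nuclease that cuts hairpin precursors into microRNAs, and ES cells without it grow slowly and differentiate poorly. Dnmt3a and Dnmt3b place new methyl groups on cytosines of CpG dinucleotides, while Dnmt1 copies existing methylation after replication. Methylation of promoters in early embryos keeps germline genes silent and helps to separate the embryonic from the trophoblast lineage, which forms the placenta. In ES cells without Dicer, higher levels of Rbl2, a retinoblastoma-family repressor and microRNA target, have been linked to lower levels of the Dnmt3 enzymes.

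Each clone was hybridised on 2 Agilent 2-colour arrays with the dyes exchanged. Values are log2 ratios of Dnmt3a,3b-labelled over Dicer-null cells, so a positive value means a higher signal in the Dnmt3a,3b-labelled cells. Array values are given as array 1, with the Dnmt3a,3b RNA in Cy5, and then array 2, with it in Cy3. Means are over the clones, after averaging the arrays of each clone, with the SD over clones (n = 2). Over the 12 arrays the median green signal was 112 to 135 and the median red signal 234 to 334, with 61.6% to 68.6% of probes well above background. The arrays of clone 27G5 were on one slide and those of clone 27H10 on another, so clone and slide cannot be told apart. The labels name no separate cultures, so the p-values measure only the spread between these samples. Each p-value rests on a spread pooled over all 6 clone ratios of the series, so it does not measure the SD printed beside it.

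Of 19324 genes tested with limma, 2049 were higher in Dnmt3a,3b-labelled cells (10.6% of all genes tested) and 2029 were lower (10.5%), at an adjusted p under 0.05. A change of at least 2-fold was reached by 373 of the higher and 329 of the lower genes. On all 4 arrays 1919 of the higher and 1943 of the lower genes kept one sign. The median log2 ratio of all genes was 0.01. Across all genes the clones correlated at r = 0.818 (Spearman rho = 0.761) as a description, and 77.6% of genes had the same sign in both. No RNA is shared between the clones on these 4 arrays. Below, the value given with a gene that rose or fell is its mean log2 ratio.

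These counts lean on having both clones and on treating the ratios as independent. With the ratio of 1 clone left out, limma called 4 genes higher and 0 lower in clone 27H10 alone, and 0 in either direction in clone 27G5 alone. At an unadjusted p under 0.05, 4382 and 4478 genes passed in those fits. With the RNAs that several arrays share written into the model, 202 genes were higher and 163 lower, all of them among the calls above.

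**Figure D1:**
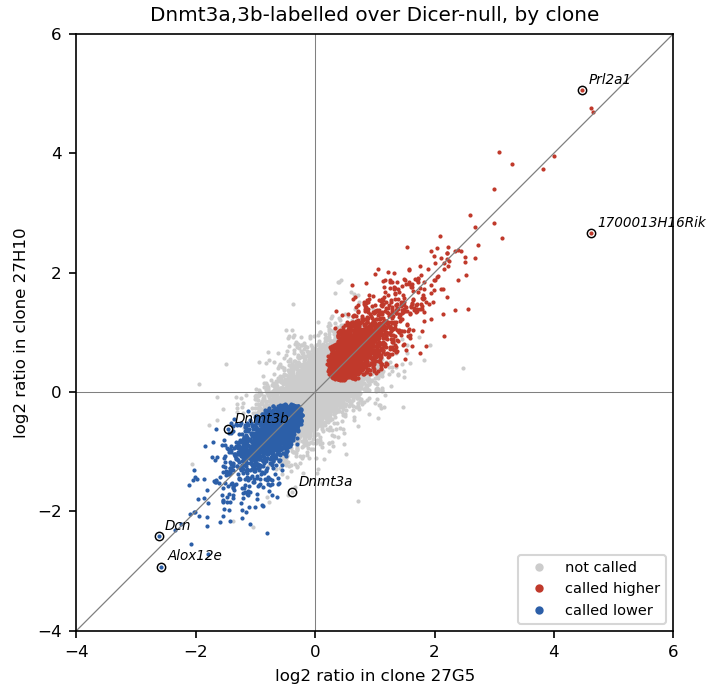
Log2 ratio of Dnmt3a,3b-labelled over Dicer-null cells in clone 27G5 (horizontal axis) against clone 27H10 (vertical axis), 1 point for each of the 19324 genes tested; red points were called higher (2049), blue points lower (2029) and grey points were not called. Named genes are ringed: Prl2a1 and Dcn lie near the diagonal, while 1700013H16Rik, Dnmt3a and Dnmt3b lie away from it.

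The label was first held against the transcripts it names. The probe used for Dnmt3a had log2 ratios of -0.02 and -0.74 for 27G5 and -1.56 and -1.79 for 27H10. The signal of this probe was thus lower in Dnmt3a,3b-labelled cells on all 4 arrays, and far more so in clone 27H10. The mean was -1.03 ± 0.92 (adjusted p = 0.0834, limma), which did not pass. Dnmt3a had 3 probes on chromosome 12 of build mm7. The one used lies at 3826602 to 3826661, a second at 3825243 to 3826024 gave -0.72 ± 0.85, and the third at 3830965 to 3831024 gave 0.20 ± 0.01. The probes of Dnmt3a thus differed in sign.

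The single Dnmt3b probe tested had log2 ratios of -1.36 and -1.56 for 27G5 and -0.52 and -0.72 for 27H10. Dnmt3b fell, with a mean of -1.04 ± 0.59 (adjusted p = 0.0344), and without the 27G5 or the 27H10 ratio its adjusted p was 0.251 or 0.0732. The call on the Dnmt3b log2 ratio was also lost with the shared RNAs modelled (adjusted p = 0.331), without the filter on dim probes (0.0602) and with only the 4 ratios over Dicer-null cells (0.0635). Neither gene was called higher in the cells whose label names it. The labels do not say which sequence was introduced, and a probe outside that sequence cannot check the label.

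Dnmt3l, a partner of the Dnmt3 enzymes without catalytic activity, was at -0.34 ± 0.01 and did not pass (adjusted p = 0.0688). Dnmt1 was at 0.27 ± 0.07 (adjusted p = 0.114) and likewise did not pass. Dicer1 fell to -0.77 ± 0.08 (adjusted p = 0.00495) at its brighter probe, with array values of -1.41 and -0.25 for 27G5 and -0.94 and -0.48 for 27H10. All 4 Dicer1 values were negative, and array 1 was the lower one in both clones. At the second Dicer1 probe the value was -0.07 ± 0.01. In Dicer-null over wild-type cells that probe was at -4.07, against -0.53 at the brighter one, so its signal was already largely lost in the reference. The extent of the deletion is not stated. Rbl2 was at -0.37 ± 0.08 (adjusted p = 0.0455), but its array values were 0.23 and -0.86 for 27G5 and -0.10 and -0.74 for 27H10. The first of these has the opposite sign, and the call was lost under 11 of 18 alternative settings.

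In Dnmt1-labelled over Dicer-null cells Dnmt3a was at -1.34 ± 0.58 and Dnmt3b at -1.06 ± 0.40. In Dicer-null cells over wild type they were at -0.88 ± 0.24 and -1.23 ± 0.30, and Rbl2 was at 1.85 ± 0.03. All of these comparisons contain the Dicer-null RNA, so their values are set side by side only.

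**Figure D2:**
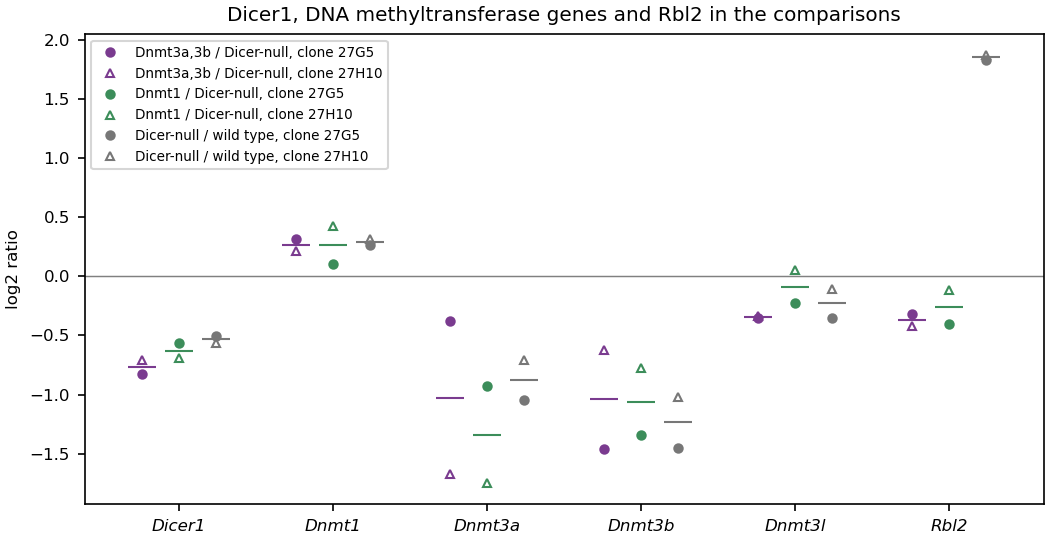
Log2 ratios of Dicer1, the DNA methyltransferase genes and Rbl2 in clone 27G5 (filled circles) and clone 27H10 (open triangles), with the mean as a line, for Dnmt3a,3b-labelled over Dicer-null cells (purple), Dnmt1-labelled over Dicer-null cells (green) and Dicer-null over wild-type cells (grey). The purple symbols of Dnmt3a and Dnmt3b all lie under 0, and Dnmt3a differs most between the clones.

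Of the 22 genes on the list of DNA methyltransferases and methyl-CpG machinery, all were tested, 5 (22.7%) rose, 1 (4.55%) fell and 16 did not pass, against 10.6% and 10.5% of all genes tested. With the shared RNAs in the model limma called 0 of them. The median was 0.17, against 0.01 for all genes. Gadd45a and Gadd45b, stress-induced proteins linked to active demethylation, rose by 0.90 ± 0.38 and 0.77 ± 0.32. The methyl-CpG-binding repressor Mbd2 rose by 0.48 ± 0.11. Tet3, which oxidises methylcytosine, and the ubiquitin ligase Uhrf2 rose by 0.75 ± 0.18 and 0.43 ± 0.01, but a further probe of each was at -0.09 and -0.11.

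The highest genes were hormones of the placenta. The prolactin family of the mouse lies on chromosome 13. Its placental members are secreted by trophoblast giant cells and spongiotrophoblast and act on the mother and on blood vessels. Promoters of 4 of these genes are shown because the genes moved together and because CpG is the substrate of Dnmt3a and Dnmt3b. Capitals mark each CG in the 250 bases before and 50 after the start (RefSeq, GRCm38.p6, 5′ to 3′ along the gene).
Prl2a1: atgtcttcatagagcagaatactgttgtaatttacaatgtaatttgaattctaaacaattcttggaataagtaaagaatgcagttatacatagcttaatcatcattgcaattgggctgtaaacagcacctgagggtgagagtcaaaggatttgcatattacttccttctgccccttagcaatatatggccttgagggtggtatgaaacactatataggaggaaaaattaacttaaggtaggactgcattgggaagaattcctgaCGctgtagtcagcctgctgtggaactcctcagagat
Prl2c5: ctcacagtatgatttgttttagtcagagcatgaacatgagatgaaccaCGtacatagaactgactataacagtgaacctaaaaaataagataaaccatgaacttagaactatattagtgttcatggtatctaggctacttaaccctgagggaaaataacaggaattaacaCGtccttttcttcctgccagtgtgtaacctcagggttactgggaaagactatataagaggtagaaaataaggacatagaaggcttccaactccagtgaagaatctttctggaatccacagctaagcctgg
Prl2c3: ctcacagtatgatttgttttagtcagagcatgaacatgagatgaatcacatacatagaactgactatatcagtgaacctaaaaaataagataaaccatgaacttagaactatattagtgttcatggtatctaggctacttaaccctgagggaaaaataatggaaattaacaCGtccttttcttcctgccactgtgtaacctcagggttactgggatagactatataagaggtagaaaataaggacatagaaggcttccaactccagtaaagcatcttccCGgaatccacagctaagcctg
Prl3d1: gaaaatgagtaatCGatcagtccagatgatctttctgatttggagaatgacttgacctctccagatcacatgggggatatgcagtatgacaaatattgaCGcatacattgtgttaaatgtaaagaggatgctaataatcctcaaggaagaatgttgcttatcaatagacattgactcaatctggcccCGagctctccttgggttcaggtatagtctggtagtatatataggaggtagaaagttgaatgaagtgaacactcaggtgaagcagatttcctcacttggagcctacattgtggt
They lie at chr13:27801405-27801704, plus strand for Prl2a1, chr13:13182466-13182765, plus strand for Prl2c5, chr13:12800030-12800329, minus strand for Prl2c3 and chr13:27093939-27094238, plus strand for Prl3d1. They hold 1, 2, 2 and 3 CG dinucleotides in that order. Prl2c5 and Prl2c3 share an identical run of 86 bases, while the longest run either shares with Prl2a1 is 8 bases. The motif CG reads the same on both strands and was found in 98.5% of the promoters of 12342 tested genes, with a median of 19 per promoter. Over the 11 tested prolactin-family genes the median was 2, and 90.9% had fewer than 5, against 13.8% of all tested genes with a promoter. DNA methylation was not measured on these arrays.

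Prl2a1 had log2 ratios of 3.69 and 5.26 for 27G5 and 4.74 and 5.38 for 27H10. The 4 values were far above 0, with array 1 the lower one in each clone. Their mean was 4.77 ± 0.41 (adjusted p = 0.00136). The Prl2a1 log2 ratio depended in size on how background was treated, at 7.03 from the scanner's processed signals and 7.06 in the authors' value table. The Prl2a1 signal was well above background on 4 of 4 arrays in the Dnmt3a,3b channel and on 1 of 4 in the Dicer-null channel. Prl2c5 and Prl2c3, of the proliferin group, had means of 4.69 ± 0.09 and 4.67 ± 0.03. In Dnmt1-labelled over Dicer-null cells they were at 4.59 and 4.46. The Prl2c genes are near-identical copies whose probes may share transcripts. Further Prl2c3 probes gave 3.78 ± 0.05 and 2.03 ± 0.09, and a further Prl2c5 probe gave 3.97 ± 0.09, so the size but not the sign depended on the probe.

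The placental lactogen genes Prl3d2 and Prl3d1 rose by 3.56 ± 0.66 and 2.35 ± 0.38. Prl3d2 had array values of 2.76 and 3.41 for 27G5 and 3.81 and 4.25 for 27H10, higher in clone 27H10. Prl7d1, the proliferin-related protein that restrains vessel growth, was at least 4.75-fold higher (adjusted p = 0.0217), since its Dicer-null signal was not well above background on any array. On the same basis Prl7a1 was at least 2.90-fold and Prl8a9 at least 2.41-fold higher. Such a bound sets the Dicer-null channel at the lowest signal well above background on each array. Prl4a1 rose by 0.84 ± 0.37.

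The list held 26 prolactin-family genes, of which 22 had a probe and 11 passed the filter on dim probes. Of those 11, 9 (81.8%) rose, 0 fell and 2 did not pass, against 10.6% and 10.5% of all genes tested. A member that passed the filter only where it is high had to differ, so these counts describe the measured members and not the family. Without the filter the median of the measured family members was 0.19, against 2.34 with it and 2.25 with the bounded genes at their bounds. With the shared RNAs in the model 7 members were called higher. In Dnmt1-labelled over Dicer-null cells the median of the 11 tested members was 2.49, so the high values were not particular to the Dnmt3a,3b label.

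Trophoblast regulators and markers formed the next group, with 20 genes listed and 19 tested. Among those, 13 (68.4%) rose, 0 fell and 6 did not pass, against 10.6% and 10.5% of all genes tested. The median was 1.22, with 1.23 in clone 27G5 and 1.31 in clone 27H10. When the shared RNAs were modelled 8 were called higher. In Dnmt1-labelled over Dicer-null cells the list median was 1.23. For 2 tested members the Dicer-null signal was not well above background on any array, and the limit on the prolactin-family counts may apply. Krt7, a keratin of simple epithelia and trophoblast, had log2 ratios of 2.63 and 2.73 for 27G5 and 2.81 and 2.71 for 27H10, all within a narrow span. Its mean was 2.72 ± 0.05 (adjusted p = 0.00185), and a second probe gave 3.27 ± 0.21. Krt18 and its partner Krt8 rose by 1.95 ± 0.09 and 1.11 ± 0.17.

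Among the transcription factors of trophoblast, Gata3 and Gata2 rose by 2.26 ± 0.08 and 1.90 ± 0.43. Tfap2c, needed for trophoblast maintenance, rose by 1.62 ± 0.23, and Hand1, needed for giant cells, rose by 1.55 ± 0.11. Esx1 and Plac1, X-linked genes of the placenta, rose by 2.22 ± 0.01 and 2.00 ± 0.09, and Cyp11a1, which starts steroid synthesis, rose by 1.22 ± 0.13. Cdx2, a regulator of trophoblast stem cells, rose by 0.80 ± 0.18 (adjusted p = 0.0374) and was well above background on 4 arrays in Dnmt3a,3b-labelled cells, against 1 array in Dicer-null cells. The Cdx2 log2 ratio was 2.82 from the scanner's processed signals and 2.85 in the authors' value table, and with the shared RNAs in the model its adjusted p was 0.141. Eomes and Elf5, the other stem-cell regulators on the list, were at 0.03 ± 0.35 and 0.10 ± 0.34 and did not pass (adjusted p = 0.912 and 0.732). Tpbpa, of spongiotrophoblast, was at least 2.59-fold higher.

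Several of these genes were lower in Dicer-null than in wild-type cells. Krt7 was at -2.35 ± 0.14, Krt18 at -2.14 ± 0.06 and Cdx2 at -2.10 ± 0.43 in that comparison. Prl2a1 was at -0.23 ± 0.002, Prl2c5 at -0.18 ± 0.01 and Prl3d2 at -0.08 ± 0.01 there, and none of these passed. The ratio over wild type contains the Dicer-null RNA too, and no test relates the comparisons.

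**Figure D3:**
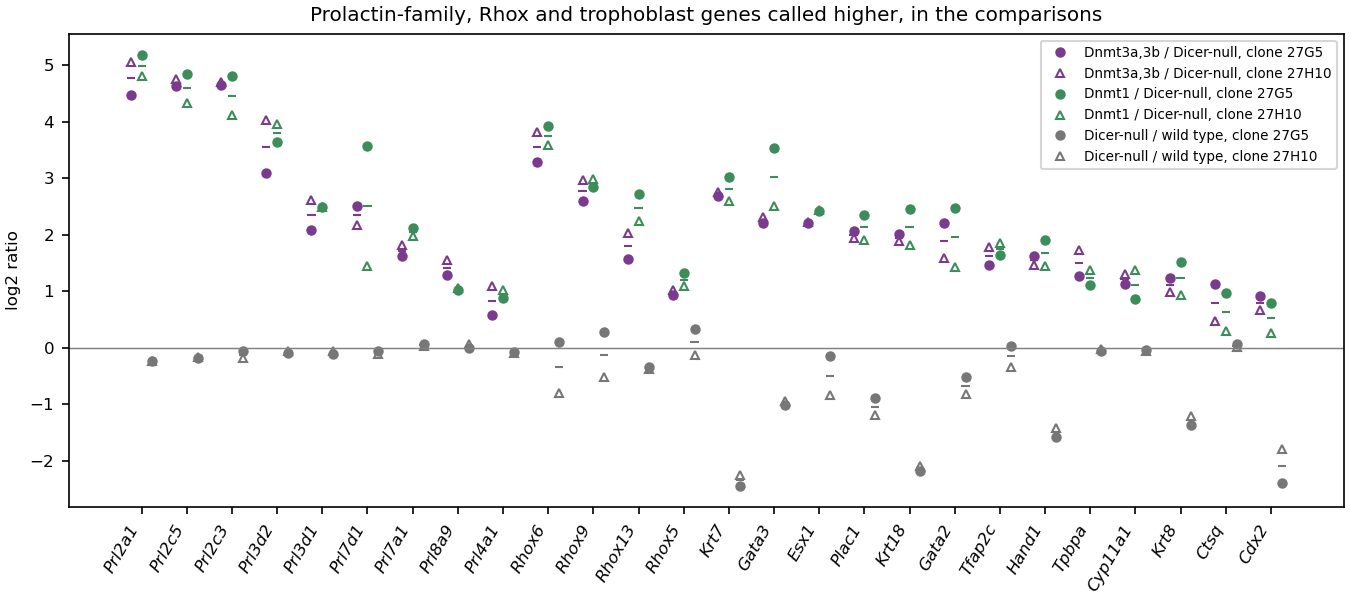
Log2 ratios of the 26 prolactin-family, Rhox and trophoblast genes called higher, for Dnmt3a,3b-labelled over Dicer-null cells (purple), Dnmt1-labelled over Dicer-null cells (green) and Dicer-null over wild-type cells (grey), with clone 27G5 as filled circles, clone 27H10 as open triangles and the mean as a short line. Purple symbols lie above 0 for every gene shown, which were selected as called. The grey symbols lie near 0 for the prolactin genes and under -1 for Krt7, Krt18, Krt8, Hand1 and Cdx2. For Prl2c5, Prl2c3 and Krt7 the green mean lines lie at 4.59, 4.46 and 2.81. Genes given as a bound in the text are drawn at their measured ratio.

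The cell-type markers of the arrays moved in the same samples. All 9 of the 10 ES cell markers with a probe were well above background on all 4 arrays in both channels, with Nanog higher and none lower. Their summed normalised signal was 210222 to 311093 in Dnmt3a,3b-labelled cells, against 206966 to 304314 in Dicer-null cells, and the ranges overlap. The 10 trophoblast markers summed to 67028 to 140898 in Dnmt3a,3b-labelled cells, against 18406 to 31426 in Dicer-null cells, with 8 of them higher, and these ranges do not overlap. Krt18 and Krt7 made up most of the trophoblast sum, and Vim and Fn1 most of the fibroblast sum given below. Mesoderm markers summed to 935 to 1050 in Dnmt3a,3b-labelled and 1655 to 1869 in Dicer-null cells, and Kdr and Evx1 made up most of that sum. Each range is over 4 arrays of 2 clones. Neuroectoderm and primed epiblast markers summed to 6540 to 9043 in Dnmt3a,3b-labelled and 13324 to 17313 in Dicer-null cells, and neither pair of ranges overlaps. Primitive endoderm markers summed to 1441 to 1787 in Dnmt3a,3b-labelled and 1324 to 1450 in Dicer-null cells. Fibroblast markers summed to 38675 to 65146 in Dnmt3a,3b-labelled and 50433 to 64503 in Dicer-null cells, and these last ranges overlap. T and Mixl1 of mesoderm and Lum of fibroblasts were not well above background on any of the 4 arrays in either channel. In these bulk samples more cells of a type and more RNA per cell cannot be told apart, and the part of other cell types in the results was not tested.

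Rhox homeobox genes, an X-linked cluster used in the placenta and the germ line, were tested for 7 of 15 listed members. Among those, 4 (57.1%) rose, 0 fell and 3 did not pass, against 10.6% and 10.5% of all genes tested. Rhox6 had log2 ratios of 2.77 and 3.81 for 27G5 and 3.57 and 4.06 for 27H10 and a mean of 3.55 ± 0.37 (adjusted p = 0.00258). Rhox9 rose by 2.78 ± 0.27, although its signal was saturated on 2 of 4 arrays in Dnmt3a,3b-labelled cells, and Rhox13 rose by 1.80 ± 0.33. Rhox5, the first member described, rose by 0.98 ± 0.07. The median of the measured members was 0.98, and in Dnmt1-labelled over Dicer-null cells it was 1.28.

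Of 31 listed germline genes known to be silenced by DNA methylation, 30 were tested, of which 5 (16.7%) rose, 2 (6.67%) fell and 23 did not pass, against 10.6% and 10.5% of all genes tested, with a median of 0.16. Rhox9 and Rhox5 are 2 of the 5. The others were Taf7l, a testis-specific transcription factor, at 1.52 ± 0.14, Stra8, which starts meiosis, at 1.58 ± 0.35, and Tdrkh, of the piRNA pathway, at 0.79 ± 0.004. Hormad1, of the meiotic chromosome axis, and Tex101, a sperm surface protein, fell to -0.44 ± 0.12 and -0.46 ± 0.17. The promoters of Taf7l and Stra8 are shown for contrast with those of the prolactin genes, with each CG in capitals.
Taf7l: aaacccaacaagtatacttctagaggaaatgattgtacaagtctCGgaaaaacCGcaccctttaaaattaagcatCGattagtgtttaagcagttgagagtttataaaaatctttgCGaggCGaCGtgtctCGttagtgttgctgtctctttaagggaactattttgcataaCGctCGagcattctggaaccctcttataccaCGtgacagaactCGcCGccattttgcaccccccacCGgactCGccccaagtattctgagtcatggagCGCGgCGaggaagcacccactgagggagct
Stra8: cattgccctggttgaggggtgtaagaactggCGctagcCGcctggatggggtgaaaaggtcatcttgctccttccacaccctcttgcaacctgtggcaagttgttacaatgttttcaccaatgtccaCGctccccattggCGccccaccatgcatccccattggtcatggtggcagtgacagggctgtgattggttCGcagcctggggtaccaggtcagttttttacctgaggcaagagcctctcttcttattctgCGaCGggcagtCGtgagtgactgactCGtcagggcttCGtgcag
They lie at chrX:134476441-134476740, minus strand and chr6:34920698-34920997, plus strand (RefSeq, GRCm38.p6) and hold 17 and 10 CG dinucleotides. Over the 27 germline genes with a promoter the median was 19. Promoters of the genes higher by at least 2-fold had a median of 18 (271 genes), and promoters of the genes lower by at least 2-fold had a median of 14 (188 genes).

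Of 35 imprinted genes 5 rose, 5 fell and 25 did not pass, or 14.3% each way, which is near the 10.6% and 10.5% of all genes tested. H19, the maternally expressed noncoding RNA, rose by 1.84 ± 0.20 (adjusted p = 0.00250; 2.73 ± 0.47 at a second probe), and Igf2, its paternally expressed neighbour, rose by 1.69 ± 0.30. The cell-cycle inhibitor Cdkn1c rose by 1.81 ± 0.20 and Sgce by 1.48 ± 0.02. Kcnq1ot1, the antisense RNA of the Cdkn1c domain, fell to -1.03 ± 0.21, and Peg3, a zinc finger gene expressed from the paternal allele, fell to -0.47 ± 0.05. Dcn, on the list for its imprinting in the placenta, was the lowest member and is given below. Igf2, Cdkn1c, Sgce and H19 were lower in Dicer-null than in wild-type cells, at -2.69 ± 0.45, -2.66 ± 0.11, -2.05 ± 0.02 and -1.08 ± 0.21.

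Beside the placental genes, the 15 highest genes held several secreted proteins and enzymes. Sct, which encodes the hormone secretin, had log2 ratios of 3.84 and 4.15 for 27G5 and 3.89 and 4.01 for 27H10 and a mean of 3.98 ± 0.03 (adjusted p = 0.00185). Csf1, the macrophage growth factor, rose by 2.59 ± 0.19, and Tgm2, a transglutaminase that crosslinks proteins, by 2.46 ± 0.31 (1.76 and 1.502 at further probes). Shroom1, an actin-binding protein, rose by 2.85 ± 0.39 and Exoc3l4, related to an exocyst subunit, by 2.92 ± 0.11. 1600025M17Rik rose by 3.20 ± 0.28. 1700013H16Rik had array values of 3.90 and 5.35 for 27G5 and 2.27 and 3.06 for 27H10, so it rose much more in clone 27G5 (mean 3.64 ± 1.39, adjusted p = 0.0190).

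The lowest gene was Alox12e, an epidermal lipoxygenase, with log2 ratios of -2.78 and -2.38 for 27G5 and -2.98 and -2.87 for 27H10 and a mean of -2.75 ± 0.24 (adjusted p = 0.00209). Dcn, the matrix proteoglycan decorin, had values of -2.99 and -2.25 for 27G5 and -2.60 and -2.22 for 27H10, with array 1 the lower one in both clones, and fell to -2.52 ± 0.15. The Dcn log2 ratio was -4.25 from the scanner's processed signals and -4.22 in the authors' value table. Klk1b5, a kallikrein, Aass, which degrades lysine, and the endothelin Edn2 fell to -2.33 ± 0.02, -2.31 ± 0.33 and -2.25 ± 0.65. Ucma, a cartilage matrix protein, fell to -2.07 ± 0.03. The ephrin receptor Epha4 and the neuronal endosomal protein Nsg2 fell to -2.02 ± 0.02 and -2.01 ± 0.01. Rtkn, an effector of small GTPases, Serpinc1, which encodes antithrombin, and Ramp2, a receptor accessory protein, fell to -2.01 ± 0.10, -1.95 ± 0.19 and -1.88 ± 0.41. Sftpd, of lung surfactant, and Prnd, related to the prion protein, fell to -1.87 ± 0.13 and -1.84 ± 0.39. A second probe of Serpinc1 was at -0.70 ± 0.06. Of these low genes, Klk1b5 and Ramp2 did not pass in Dicer-null over wild-type cells, and the others were higher in Dicer-null cells, between 0.76 ± 0.23 for Prnd and 3.70 ± 0.08 for Serpinc1.

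**Figure D4:**
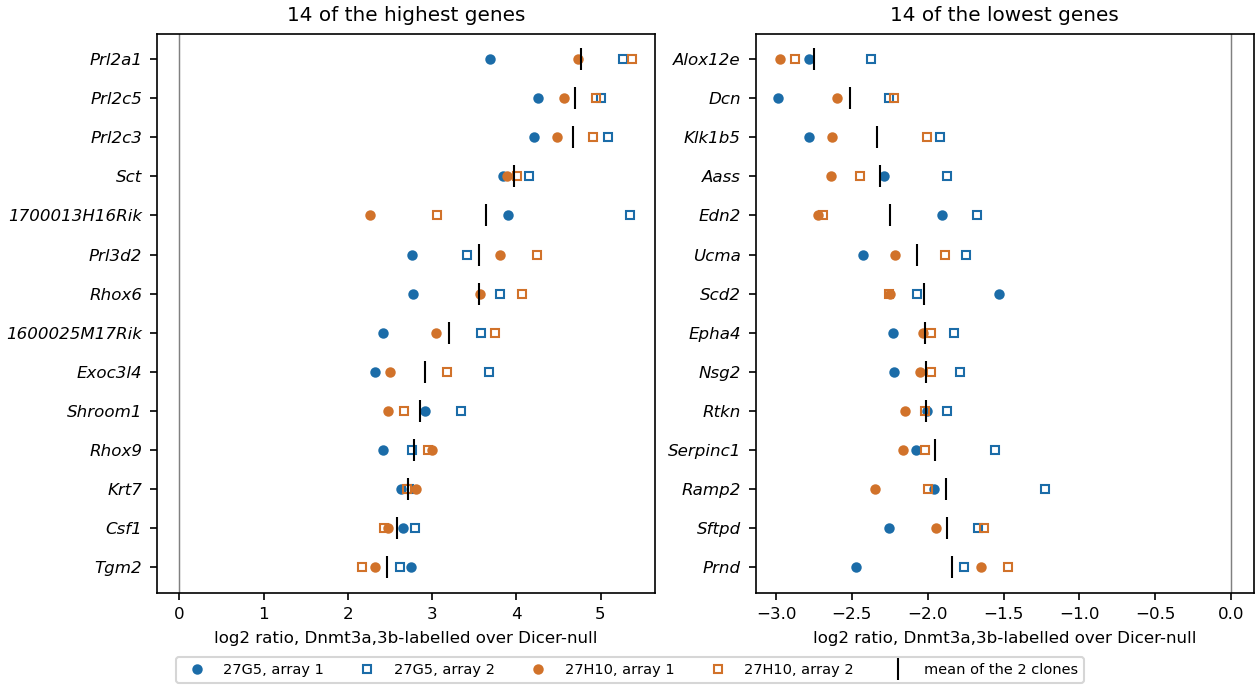
Log2 ratios of Dnmt3a,3b-labelled over Dicer-null cells on each of the 4 arrays for 14 of the 15 highest genes (left) and 14 of the 15 lowest genes (right) among those called with one sign on all arrays. Blue marks clone 27G5 and orange clone 27H10, filled circles are array 1 (Dnmt3a,3b RNA in Cy5), open squares array 2 (dyes exchanged), and the black tick is the mean. The clones are farthest apart for 1700013H16Rik, and then for Prl3d2 and Edn2.

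Interferon response and MHC class I genes were called in 1 direction. Of 34 listed genes 31 were tested, of which 15 (48.4%) rose, 0 fell and 16 did not pass, against 10.6% of all genes tested that rose. The median was 0.46, with 0.50 in clone 27G5 and 0.44 in clone 27H10. Modelling the shared RNAs left 3 called higher. In Dnmt1-labelled over Dicer-null cells the list median was 0.36. The oligoadenylate synthetase-like genes Oasl1 and Oasl2 rose by 1.49 ± 0.03 and 1.36 ± 0.002. Isg15, a ubiquitin-like modifier, had log2 ratios of 0.79 and 1.49 for 27G5 and 1.11 and 1.13 for 27H10 and rose by 1.13 ± 0.02 (adjusted p = 0.00273). Its protease Usp18 rose by 1.25 ± 0.33. The double-stranded RNA sensor Ifih1, the related helicase Dhx58 and the regulator Irf7 rose by 0.99 ± 0.24, 1.02 ± 0.22 and 0.80 ± 0.10.

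Of the antigen-presentation genes, the immunoproteasome subunit Psmb8 rose by 1.42 ± 0.06, the peptide transporter subunit Tap2 by 0.96 ± 0.07 and the peptide-loading factor Tapbp by 0.46 ± 0.03. The MHC class I light chain B2m rose by 0.84 ± 0.10, and the heavy chains H2-T23 and H2-D1 rose by 0.81 ± 0.05 and 0.63 ± 0.09. Ifit3, a classical interferon-induced gene, was at least 1.32-fold higher. Trophoblast markers moved in the same samples, as given above, and their part in these values was not tested.

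Of 17 tested contractile cytoskeleton genes 7 (41.2%) rose and 0 fell, against 10.6% of all genes tested that rose, with a median of 0.33. Modelling the shared RNAs left 3 of them called. Tpm2, a tropomyosin, rose by 1.69 ± 0.10, and Lgals1, a galectin on this list, by 1.69 ± 0.26. Cnn2, a calponin, rose by 1.04 ± 0.02, and Tagln, an actin-binding protein of smooth muscle, by 0.95 ± 0.02 (1.30 ± 0.05 at a second probe). In Dicer-null over wild-type cells these genes were at -2.60 ± 0.10, -3.50 ± 0.05, -1.92 ± 0.16 and -4.20 ± 0.13 in that order. Of 22 tested fibroblast markers 3 (13.6%) rose, 1 (4.55%) fell and 18 did not pass, against 10.6% and 10.5% of all genes tested. Loxl1, a lysyl oxidase, at 1.20 ± 0.14, Pdgfrb, a growth factor receptor, at 0.65 ± 0.13, and Tagln rose, and Dcn fell.

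Of 15 tested markers of the primed epiblast and of neuroectoderm 7 (46.7%) fell, 2 rose and 6 did not pass, against 10.5% of all genes tested that fell, with a median of -0.65. With the shared RNAs in the model 1 was called lower. Fgf5, a growth factor of the primed epiblast, had log2 ratios of -1.57 and -0.88 for 27G5 and -1.78 and -1.43 for 27H10 and fell to -1.42 ± 0.27 (adjusted p = 0.0159). The epiblast regulators Otx2 and Pou3f1 fell to -1.13 ± 0.08 and -1.25 ± 0.43, and the neural genes Map2, Nes, Neurod1 and Tubb3 to -1.24 ± 0.25, -1.09 ± 0.06, -1.04 ± 0.33 and -0.65 ± 0.05. Further probes of Map2 were at -0.28 and -0.29. Pax6 and Zic2, transcription factors of the neural plate, rose by 1.06 ± 0.11 and 0.93 ± 0.15.

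Mesoderm and primitive streak genes were divided, with 5 of 16 (31.25%) lower, 3 (18.75%) higher and 8 not passing, against 10.5% and 10.6% of all genes tested. Lefty2, an inhibitor of Nodal, and Nodal itself fell to -1.60 ± 0.53 and -0.74 ± 0.20. Kdr, the receptor of vascular endothelial growth factor, Evx1 and Snai1 fell to -1.13 ± 0.08, -0.92 ± 0.17 and -0.72 ± 0.06. Hand1, which is also on the trophoblast list, Gsc and Tbx6 were the members that rose, Gsc by 0.64 ± 0.06 and Tbx6 by 0.42 ± 0.16. T, the mesoderm regulator brachyury, was not well above background on any array of this comparison.

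Of 22 tested primitive endoderm markers 6 (27.3%) rose, 3 (13.6%) fell and 13 did not pass, against 10.6% and 10.5% of all genes tested. The basement membrane collagens Col4a1 and Col4a2 rose by 1.45 ± 0.16 and 1.33 ± 0.02, and the laminin Lamb1 by 0.93 ± 0.38. Gata6, the lineage regulator, rose by 0.48 ± 0.34 (adjusted p = 0.0489), while Sox17 was at 0.19 ± 0.09 and did not pass (adjusted p = 0.319). The Gata6 call held under 10 of 18 alternative settings. Amn, of the endocytic receptor complex, rose by 0.50 ± 0.12, and its partner Cubn fell to -1.44 ± 0.07. Srgn, a proteoglycan of secretory granules, fell to -0.89 ± 0.04.

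The pluripotency list gave few calls, with 2 of 24 tested genes higher, 2 lower and 20 not passing. That is 8.33% each way, near the 10.6% and 10.5% of all genes tested, and the list median was 0.06. Pou5f1, the central factor of pluripotency, had log2 ratios of 0.82 and -0.14 for 27G5 and -0.32 and -0.09 for 27H10, with clone means of opposite sign, and a mean of 0.07 ± 0.39 (adjusted p = 0.840). Sox2 was at 0.02 ± 0.14 (adjusted p = 0.915) and did not pass. Nanog rose by 0.62 ± 0.20 (adjusted p = 0.0468) and Tbx3 by 0.51 ± 0.15, with a second Tbx3 probe at 0.12 ± 0.09. The Nanog call was lost under 11 of 18 alternative settings, over which its log2 ratio ran from 0.04 to 1.20, and with the shared RNAs modelled its adjusted p was 0.249. The nuclear receptor Nr5a2, which activates Pou5f1, fell to -1.08 ± 0.21, and Lin28a, an RNA-binding protein that blocks let-7, fell to -0.68 ± 0.28.

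Fatty acid and cholesterol synthesis genes were lower where they were called. Of 23 tested 6 (26.1%) fell, 0 rose and 17 did not pass, against 10.5% and 10.6% of all genes tested. The median was -0.31, and 2 were called lower with the shared RNAs in the model. The desaturases Scd2 and Scd1 fell to -2.03 ± 0.32 and -1.68 ± 0.20. Of the cholesterol pathway, Hmgcs1, the HMG-CoA synthase, fell to -0.83 ± 0.02, Idi1 to -1.10 ± 0.15, Fdps to -0.63 ± 0.07 and Dhcr7, of its last step, to -0.87 ± 0.16. Further probes gave smaller falls, with -0.47 and -0.45 for Hmgcs1, -0.78 for Idi1 and -0.26 ± 0.34 for Fdps. Scd2 was at -2.75 ± 0.74 and Scd1 at -2.23 ± 0.14 in Dnmt1-labelled over Dicer-null cells.

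Of 22 tested p53 targets 6 (27.3%) fell, 1 rose and 15 did not pass, against 10.5% of all genes tested that fell, and limma called 0 with the shared RNAs modelled. The median was -0.38. Zmat3, an RNA-binding protein, fell to -0.62 ± 0.02, the antiproliferative Btg2 to -0.68 ± 0.21, and the death receptor genes Fas and Tnfrsf10b to -0.43 ± 0.10 and -0.59 ± 0.31. Gadd45a was the member that rose.

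Among 29 tested genes of the retinoblastoma family and of G1/S control 4 rose, 3 fell and 22 did not pass. These shares, 13.8% and 10.3%, are near the 10.6% and 10.5% of all genes tested. The inhibitors Cdkn1c and Cdkn2a rose by 1.81 ± 0.20 and 0.82 ± 0.16, and Cdkn2b, which neighbours Cdkn2a, fell to -0.69 ± 0.01. Cyclin D2, Ccnd2, rose by 0.93 ± 0.43, with 1.23 for 27G5 and 0.63 for 27H10 (further probes 1.03 and 0.90). E2f1 rose by 0.39 ± 0.16 and E2f3 fell to -0.57 ± 0.32, both being transcription factors that retinoblastoma proteins bind. Of 14 published targets of the miR-290 cluster, the main microRNAs of ES cells, 4 (28.6%) fell, 2 (14.3%) rose and 8 did not pass. Among all genes tested the shares were 10.5% and 10.6%. Lefty2, Lefty1, Ei24 and Rbl2 were the members that fell, Lefty1 by -0.62 ± 0.16 and Ei24 by -0.38 ± 0.06, while Rhoc, a small GTPase, rose by 0.90 ± 0.20.

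In the small RNA machinery 3 of 19 genes (15.8%) rose, 4 (21.1%) fell and 12 did not pass, against 10.6% and 10.5% of all genes tested. Beside Dicer1 and Lin28a, the Argonaute gene Ago3 fell to -0.60 ± 0.01, with 3 further probes between -0.24 and -0.13, and Tnrc6b, an Argonaute partner, fell to -0.89 ± 0.11. Its relative Tnrc6c rose by 0.70 ± 0.15, the microprocessor subunit Dgcr8 by 0.49 ± 0.09, and Xpo5, which exports microRNA precursors, by 0.41 ± 0.17. Heterochromatin and Polycomb genes gave 2 higher (6.45%), 4 lower (12.9%) and 25 not passing of 31, against 10.6% and 10.5% of all genes tested. Suv39h1, which trimethylates histone H3 in heterochromatin, rose by 0.96 ± 0.16. The Polycomb subunits Bmi1 and Suz12 fell to -0.81 ± 0.27 and -0.58 ± 0.02 (-0.31 and -0.09 at second probes). Cbx5, the heterochromatin protein HP1 alpha, fell to -0.66 ± 0.12, but of its further probes one was at 0.14.

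Telomere maintenance genes gave 2 higher (8.70%), 3 lower (13.0%) and 18 not passing of 23, near the 10.6% and 10.5% of all genes tested. Dkc1, of the telomerase complex, fell to -0.59 ± 0.07 and the repair factor Nbn to -0.41 ± 0.16. The Nbn call held under 5 of 18 alternative settings, and its further probes were at -0.25 and -0.11. Terf2, of shelterin, was at -0.34 ± 0.06 on the probe used but at 0.46 and 0.70 on 2 of its 3 further probes, so its direction depended on the probe. Of 23 tested glycolysis and hypoxia genes 3 (13.0%) rose, 1 (4.35%) fell and 19 did not pass, against 10.6% and 10.5% of all genes tested. Vegfa, the vessel growth factor, rose by 1.30 ± 0.02, Slc2a3, a glucose transporter, by 0.76 ± 0.02 and P4ha1, a prolyl hydroxylase, by 0.74 ± 0.23. Further probes gave 0.999 and 0.54 for Vegfa and 0.17 for Slc2a3. Ankrd37, a hypoxia-induced gene, fell to -1.07 ± 0.65.

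With the shared RNAs in the model limma called 0 genes of the pluripotency, miR-290 target, heterochromatin, telomere, glycolysis and 2-cell lists, and 1 gene each of the small RNA and the G1/S lists. Replication and mitosis genes gave 1 call among 25, the proliferation marker Mki67, which fell to -1.03 ± 0.22 (adjusted p = 0.00602). That is 4% lower and 0% higher, against 10.5% and 10.6% of all genes tested. Of 25 ribosomal protein genes 0 were called by limma in either direction and 0 passed an unadjusted p under 0.05, with log2 ratios between -0.11 and 0.16. Of 16 listed genes of the 2-cell stage 8 were tested. Tcstv1 and Tcstv3 rose by 0.84 ± 0.14 and 0.82 ± 0.21, while Pramel7, at -2.07 for 27G5 and -1.21 for 27H10, did not pass (adjusted p = 0.0760).

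Y-linked genes were lower in Dnmt3a,3b-labelled cells, with 7 of 10 listed genes tested. Among those, 6 (85.7%) fell, 0 rose and 1 did not pass, against 10.5% and 10.6% of all genes tested. The median was -0.79. Of the genes that fell, Zfy1 and Zfy2 were at -0.47 ± 0.11 and -0.61 ± 0.01 on probes with overlapping positions. Their calls may thus not be separate. Second probes were at -0.71 ± 0.25 for Zfy1 and at 0.08 ± 0.19 for Zfy2. Kdm5d, a histone demethylase, had log2 ratios of -1.51 and -1.44 for 27G5 and -0.87 and -1.01 for 27H10 and fell to -1.21 ± 0.38 (adjusted p = 0.00988). Ddx3y, an RNA helicase, fell to -1.67 ± 0.51 and Eif2s3y, a translation factor, to -1.06 ± 0.54. All 12 values of these 3 genes were negative, and clone 27G5 had the lower mean. With the shared RNAs in the model 0 of these genes were called. The medians of the other chromosomes lay between -0.005 and 0.08. Medians in clone 27G5 were highest for chromosomes 6 and 11, both at 0.12, where clone 27H10 had 0.04 and 0.05. On them 6.08% and 5.53% of genes were called lower and 13.4% and 13.2% higher, against 10.5% and 10.6% of all genes tested. Other chromosomes departed from those shares too, with 14.5% and 13.6% higher on chromosomes 19 and 5, and 7.79% and 14.2% lower on chromosomes 7 and 13.

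**Figure D5:**
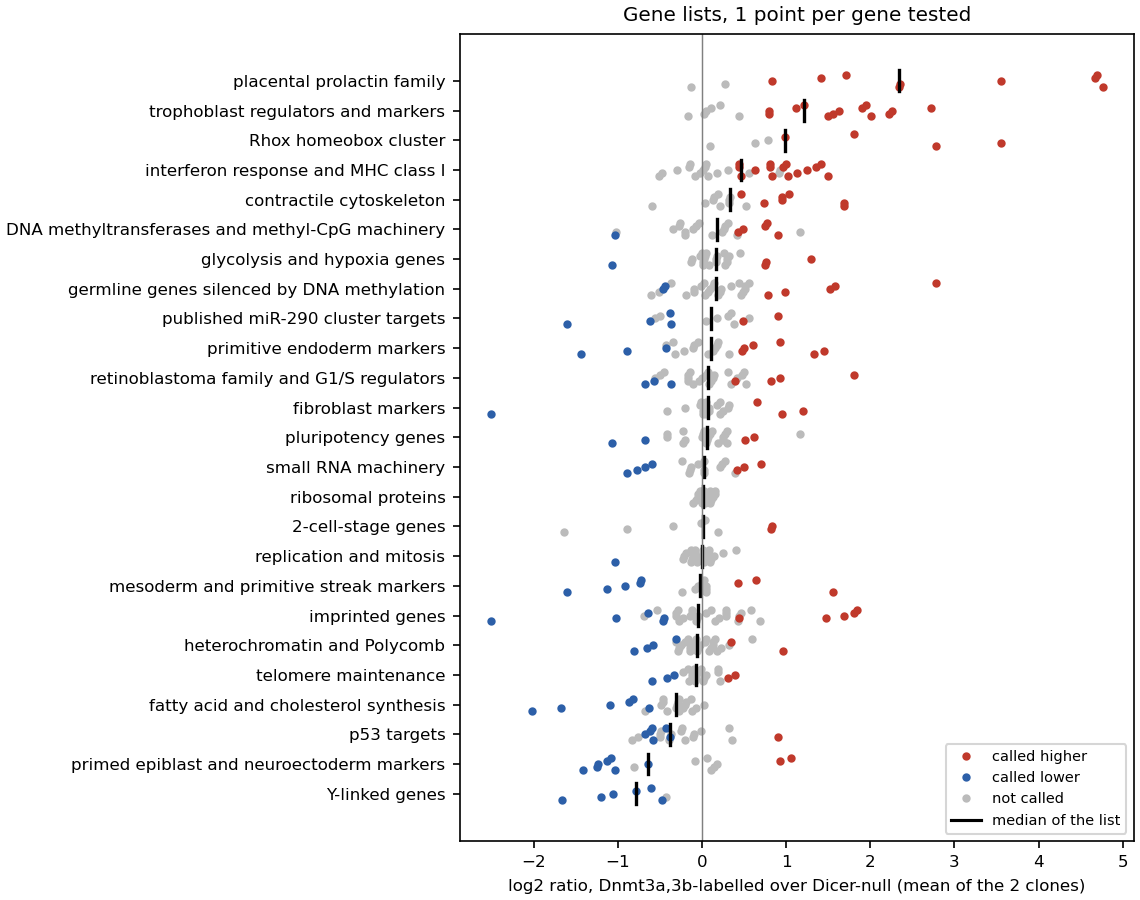
Mean log2 ratio of Dnmt3a,3b-labelled over Dicer-null cells for each tested gene of the 25 lists, 1 point per gene, ordered by the median of the list (black line). Red points were called higher, blue points lower and grey points were not called. The prolactin-family, trophoblast and Rhox lists have the highest medians (2.34, 1.22 and 0.98), and the Y-linked list has the lowest (-0.79). The prolactin-family median is over the 11 members that passed the filter on dim probes, and it was 0.19 without that filter. Genes given as a bound in the text are drawn at their measured ratio.

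The nearest comparison in the series by design was the Dnmt1-labelled line over the same Dicer-null cells, in which 2352 genes were higher (12.2% of all genes tested) and 2078 lower (10.8%). Both ratios of a clone contain the same Dicer-null RNA, so likeness between them is not read as a result. Their difference, in which the Dicer-null RNA cancels, was tested in the same limma fit. In that difference 0 of 19324 genes passed an adjusted p under 0.05 (0% called), also under each of the 17 alternative settings that allow it, and 179 passed at an unadjusted p under 0.05. The smallest adjusted p was 1.00. The absence of a call does not show that the lines were alike. The median size of the difference was 0.08 and its 99th percentile 0.44 on the log2 scale, beside 0.20 and 1.46 for the log2 ratio over Dicer-null cells itself.

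For 28 of the highest and lowest genes the difference of Dnmt3a,3b from Dnmt1 had a median size of 0.19. It was largest for Scd2, at 0.73, with means over Dicer-null cells of -2.03 ± 0.32 in the Dnmt3a,3b-labelled and -2.75 ± 0.74 in the Dnmt1-labelled cells. Outside these 28 genes, Gata3 was at 2.26 ± 0.08 in the Dnmt3a,3b-labelled cells and at 3.01 ± 0.73 in the Dnmt1-labelled cells. Rhox13, also outside them, was at 1.80 ± 0.33 and at 2.48 ± 0.35 in that order. All 28 were also called in the same direction in Dnmt1-labelled over Dicer-null cells, against 12.2% higher and 10.8% lower of all genes tested. These genes were chosen by a ratio that contains the same Dicer-null RNA, so the count is not read as a result.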

How the data were processed

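RNA of 12 2-colour arrays was read from the deposited scanner files, whose mean and background intensity columns are unnormalised per the file headers (Agilent Feature Extraction 9.5.1.1, and 9.1.3.1 for arrays with wild-type RNA). Per the file headers, the deposited log10 ratio is background-subtracted and dye-normalised. The log2 value table deposited by the authors was already turned to the first-named cells and correlated with that ratio at r of 0.9997 or more on every array; its column medians ran from -0.14 to 0.17, and its centring is not given in the sources used here. No per-sample column was unused (0 columns). The analysis used limma 3.58.1 and statmod 1.5.0 under R 4.3.3, with normexp background correction (offset 50) and loess within each array. Control spots had weight 0 and outlier-flagged spots were dropped. Spots of a probe, then dye-swapped arrays, were averaged to 6 ratios. Of 41174 probes, 22944 were named by RefSeq accession, 3108 by RefSeq synonym, and 15122 kept the name of the array design. RefSeq names follow assembly GRCm38.p6, and probe positions are on mm7. A gene was tested on its brightest probe present on all arrays and well above background on both arrays of at least 1 of 7 RNAs. The 6 ratios were fitted with 1 coefficient per comparison, which left 3 residual degrees of freedom, and moderated by eBayes (Benjamini-Hochberg, threshold 0.05). The fit was also run on simulated independent ratios, where 66% of log2 changes of 1 and 93% of log2 changes of 2 were called. False calls numbered 7 of 166. The simulated ratios shared no RNA, so that run cannot show how shared RNAs affect the calls. Far fewer genes were changed in it than were called in the data, and only in the Dnmt3a,3b ratios. Its shares of recovered and false calls therefore need not hold for the data. The named genes were Dicer1, the Dnmt genes, Rbl2, the 15 highest and lowest called with one sign on all 4 arrays, up to 4 genes per list by moderated statistic, and 8 lineage genes; other list members that were called are also named, chosen after their values were seen. Some genes that this rule names are not reported here. The members and the 25 lists were chosen with earlier results of these data known. Clone names pair the ratios; deviations of the clones correlated at 0.365 between the Dnmt3a,3b and Dnmt1 ratios, which share Dicer-null RNA, at -0.13 between the Dnmt3a,3b and wild-type ratios, and at -0.06 between the Dnmt1 and wild-type ratios.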

Additional observations from a re-analysis of the deposited data

How the results depend on the processing

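Over 18 alternative settings the counts of genes higher and lower in Dnmt3a,3b-labelled cells stayed within 1.5 times of 2049 and 2029 except as follows. With only the 4 ratios over Dicer-null cells, 1174 genes were higher and 1213 lower, and with the shared RNAs modelled, 202 and 163. With only arrays numbered 1, 3175 were lower. Leaving out 1 clone's ratio gave 0 to 4 genes higher and 0 genes lower, in fits where the lone ratio is assumed to vary like the other comparisons. With the clone as a replicate block, 1975 were higher and 1910 lower. The difference from Dnmt1-labelled cells stayed at 0 calls.

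Of 107 named genes called, 48 remained called with the shared RNAs modelled, 0 to 3 with 1 clone left out and at least 94 under each other setting. Rbl2 changed sign with only arrays numbered 1 (0.064) and Terf2 with the mean of its probes (0.13). With arrays of 1 dye orientation, all 25 ribosomal protein genes were called, lower on arrays numbered 1 and higher on arrays numbered 2. Their medians were -1.12 and 1.18 in that order, against 0.01 with the dyes averaged. Among them, Rpl4 and Rpl3 were at -0.66 and -0.72 on arrays numbered 1, and Rps7 was at 0.91 on arrays numbered 2. Genes not well above background in one channel have only a bound, and 134 called genes are of that kind.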

Other observations

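Some gene families were counted by the stem of their symbols, a choice made after the values were seen, so their counts are descriptions. Of all genes tested 10.6% were higher and 10.5% lower. Of 316 tested zinc finger genes with the stem Zfp, 89 were lower and 14 higher in Dnmt3a,3b-labelled cells, or 28.2% and 4.43%, with a median log2 ratio of -0.13. Zfp820 and Zfp975 were at -1.33 ± 0.10 and -1.31 ± 0.29, and Zfp768 at 1.61 ± 0.56. Of 27 tested Hox genes, which pattern the body axis, 10 (37.0%) were higher and 1 lower, with Hoxb2 at 1.15 ± 0.49 and Hoxb9 at -0.89 ± 0.11. Of 17 tested cathepsin genes 9 (52.9%) were higher and 1 lower, among them Ctss at 1.29 ± 0.37 and Ctsl at 0.80 ± 0.15. The placental member Ctsr was at least 1.75-fold higher. For Ctsr and Ctsq, both called higher, the Dicer-null signal was not well above background on any array. The limit on the prolactin-family counts may therefore apply to the cathepsin count. All 5 tested members of the Serpinb9 stem, granzyme inhibitors and their relatives, were higher, with Serpinb9g at 2.36 ± 0.01, Serpinb9d at 2.27 ± 0.08 and Serpinb9e at 2.17 ± 0.08.

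Of 20 tested chemokine ligand genes 3 were higher and 1 lower, which is close to the shares over all genes. Ccl2, which attracts monocytes, had array values of 2.35 and 2.54 for 27G5 and 2.45 and 2.29 for 27H10, and rose by 2.41 ± 0.05. Ccl7, which attracts them too, was at least 3.61-fold higher, since its Dicer-null signal was not well above background. Its log2 difference of Dnmt3a,3b-labelled from Dnmt1-labelled cells, 1.15, was uneven between the clones, with 1.82 for 27G5 and 0.47 for 27H10, and was not called in the limma fit (adjusted p = 1.00). Ccn4, a Wnt-induced matrix protein, was at 1.68 ± 0.24 in the Dnmt3a,3b-labelled cells and at 0.66 ± 0.23 in the Dnmt1-labelled cells. Clones differed most among called genes at 1700013H16Rik, given above, and at the Wnt pathway factor Lef1, with -0.81 for 27G5 and -2.36 for 27H10. The metallothionein genes Mt1 and Mt2 were both higher, at 0.94 ± 0.20 and 0.76 ± 0.06.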
